A study of Homo sapiens with 4 samples.

Results

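In J82 cells, a human bladder cancer line, 1876 distal regions with FOXC1 peaks carried an AP-1 site close to the FOXC1 summit. They came from 13228 regions on chromosomes 1 to 22 and X that were called as peaks in both replicates of a FOXC1 chromatin immunoprecipitation experiment (ChIP-seq). Overlapping peaks of the 2 replicates were merged. The midpoint of the replicates' summits, their points of strongest FOXC1 signal, was taken as the summit of the region. Of these summits, 10575 lay more than 2 kb from every annotated transcription start site and are called distal here. A distal summit belonged to the set when the 7-bp sequence TGACTCA, which reads TGAGTCA on the opposite strand, occurred in full within 50 bp of it. This was true for 17.7% of distal summits (95% Wilson interval 17.0 to 18.5%). The choice rested on sequence and position and not on signal, so that enrichment over input was free to differ between the 1876 regions and the 8699 other distal summits.

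The experiment served to find where FOXC1 binds the genome of bladder cancer cells, in a study of resistance to cisplatin. Its 4 libraries comprised 2 replicates of ChIP with the FOXC1 antibody D8A6 and 2 input libraries, all from J82 cells in DMEM with 10% FBS. The labels named no drug treatment and no change to the FOXC1 gene, and the study's methods call the replicates biological. The replicates held about 43.2 M and 41.5 M ChIP reads as recovered from the peak values, and the input libraries entered only through the peak calls. With 1 condition and 2 replicates no test over samples was possible, and the intervals given below cover the counting of regions only. Peak lists hold no expression values, so the identity of the cells could not be checked against marker genes.

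AP-1 is a dimer of proteins of the FOS, JUN and ATF families. It binds the TPA response element TGACTCA and carries signals from growth factors, stress and the MAPK pathway to the genome, mostly at distal enhancers. FOXC1 belongs to the forkhead family, whose winged-helix domain recognises a short AT-rich sequence, taken here as GTAAACA on either strand, in which the first base may also be A and the C may also be T. FOXC1 is known for its part in the development of mesenchyme, eye and blood vessels and for its expression in invasive carcinomas.

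The windows of 101 bp around the summits of some of the strongest regions are shown to let the 2 kinds of site be compared (hg19, letters from the GRCh37 assembly). Capitals mark the AP-1 site, the forkhead site and the extended forkhead element, a 12-base sequence in which a CCAA box precedes a forkhead-like core.
TMCO3 intron, chr13:114147753-114147853, plus strand: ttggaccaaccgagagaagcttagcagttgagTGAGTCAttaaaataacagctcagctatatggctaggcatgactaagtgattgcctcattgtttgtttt
ACO1 intron, chr9:32395983-32396083, plus strand: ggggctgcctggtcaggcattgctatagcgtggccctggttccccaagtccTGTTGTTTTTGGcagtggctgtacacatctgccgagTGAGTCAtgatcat
ITPR1 intron, chr3:4783463-4783563, plus strand: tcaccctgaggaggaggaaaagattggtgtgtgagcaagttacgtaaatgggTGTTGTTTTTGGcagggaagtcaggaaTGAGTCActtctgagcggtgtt
ZFHX3 intron, chr16:73054422-73054522, plus strand: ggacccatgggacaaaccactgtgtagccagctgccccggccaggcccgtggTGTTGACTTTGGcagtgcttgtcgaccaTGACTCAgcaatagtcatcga
DLG2 intron, chr11:84576442-84576542, plus strand: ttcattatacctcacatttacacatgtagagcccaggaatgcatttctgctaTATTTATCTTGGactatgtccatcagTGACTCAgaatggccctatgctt
nearest to DPYD, chr1:98552443-98552543, plus strand: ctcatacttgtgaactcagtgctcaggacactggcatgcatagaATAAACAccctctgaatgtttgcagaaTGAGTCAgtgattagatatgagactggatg
NT5DC3 intron, chr12:104198841-104198941, plus strand: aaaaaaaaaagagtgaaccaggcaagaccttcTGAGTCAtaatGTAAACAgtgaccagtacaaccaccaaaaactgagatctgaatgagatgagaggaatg
ULK4 intron, chr3:41309635-41309735, plus strand: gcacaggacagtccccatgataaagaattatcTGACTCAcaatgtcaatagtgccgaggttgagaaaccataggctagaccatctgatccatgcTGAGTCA
The 3 windows in ACO1, ITPR1 and ZFHX3 held an extended element on the minus strand and an AP-1 site to its right, and no 7-bp forkhead site. Of the sequences marked, the window in TMCO3 held an AP-1 site alone, and that in ULK4 held 2 AP-1 sites alone. In DLG2 the extended element contained a 7-bp forkhead site. In the windows nearest to DPYD and in NT5DC3 a 7-bp forkhead site stood beside the AP-1 site.

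AP-1 sites were gathered at distal summits. In bins of 10 bp, AP-1 sites reached 2.28 per 100 distal summits, 10.1 times the mean of 0.226 found 400 to 500 bp away. Forkhead sites reached 11.2 per 100 summits, 7.89 times their outer mean of 1.42. The forkhead peak stayed above 0.5 of its height over the outer mean from 10 bp before to 19 bp after the summit, whereas the AP-1 peak did so from 70 bp before to 59 bp after it. The AP-1 share of 17.7% compared with 2.07% (1.82 to 2.36%) in windows 500 bp downstream of the same summits and with 1.48% (1.44 to 1.53%) in 283563 windows spaced 10 kb apart along the genome. Promoter summits, within 2 kb of a start site, held an AP-1 site in 320 of 2653 cases (12.1%, 10.9 to 13.4%).

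**Figure D1:**
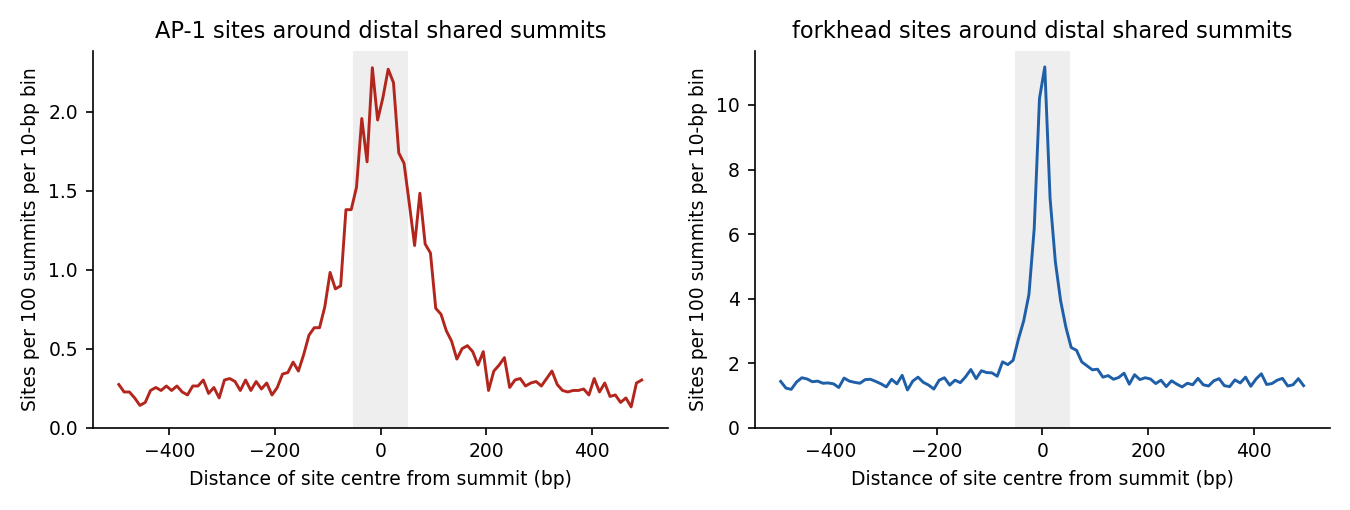
Number of AP-1 sites (left) and forkhead sites (right) per 100 of the 10575 distal summits in bins of 10 bp, against the distance of the site centre from the summit in bp; the grey band is the window of 50 bp on each side. Both lines peak at the summit, and the AP-1 line, which reaches 2.28, is the broader one.

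The AP-1 share was higher among stronger peaks. Regions were ranked in each replicate by −log10 p, and the worse of both ranks was kept. Of the 66 distal summits of rank 100 or better, 18 (27.3%) held an AP-1 site. The share was 24.6% (21.5 to 28.0%) at ranks 1001 to 2000, 18.3% (16.9 to 19.8%) at ranks 5001 to 10000, and 12.01% (10.4 to 13.8%) beyond rank 20000. The 4 bins down to rank 2000 had overlapping intervals, and the intervals of both bins beyond rank 10000 lay below all of theirs. Distal summits that only 1 replicate called differed between the replicates. Those of replicate 2 alone held an AP-1 site in 9.80% of 22177 cases (9.42 to 10.2%), and those of replicate 1 alone in 2.50% of 7568 cases (2.17 to 2.87%), near the share of the windows 500 bp away. The forkhead shares of the same summits were 34.0% for replicate 2 alone and 15.0% for replicate 1 alone, against 11.3% in the windows along the genome.

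**Figure D2:**
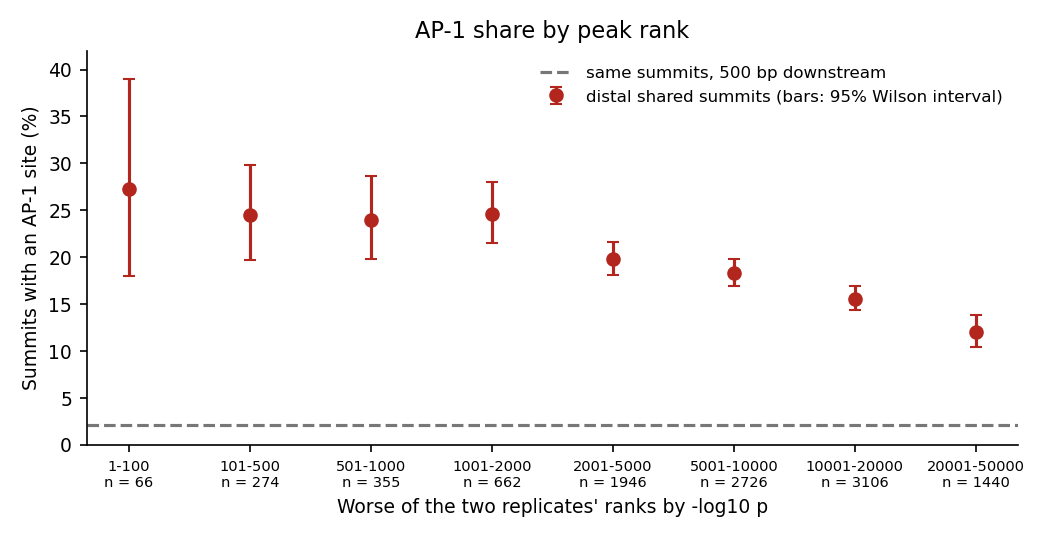
Percentage of distal shared summits with an AP-1 site, by bins of the worse rank of both replicates, with 95% Wilson intervals and the number of summits in each bin. The dashed line is the share 500 bp downstream (2.07%). The share falls from 27.3% in the first bin to 12.01% in the last.

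FOXC1 signal at the AP-1 regions was somewhat higher than at the other distal summits in both replicates. Fold enrichment, the ratio of ChIP reads over the summit to those that the peak caller expected there from the input and the surroundings, had a median of 4.08 (quartiles 3.16 and 6.45) in replicate 1 and 7.63 (5.08 and 12.5) in replicate 2. The 8699 other distal summits had medians of 3.70 and 6.55. The medians of the AP-1 regions were thus 1.10 and 1.17 times as high, a smaller step than the difference between the replicates. The counts of ChIP reads over the summit behind these ratios had medians of 26 and 51 reads in the AP-1 regions and 24 and 44 reads at the other summits. The expected background was the same, with medians of 5.39 reads in replicate 1 and 5.0 in replicate 2 for both groups. Peaks of the AP-1 regions were also wider, with medians of 431 bp against 408 bp in replicate 1 and 553 bp against 527 bp in replicate 2. The replicates' summits were 23 bp apart in the median, against 29 bp at the other summits. They lay within 100 bp of each other in 91.6% of AP-1 regions and 87.3% of the other distal regions. The largest distance between them in an AP-1 region was 586 bp, so not every midpoint lay close to both.

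The higher values in replicate 2 were shared by nearly all distal regions. Fold enrichment was higher in replicate 2 at 1761 of the 1876 AP-1 regions (93.9%), where 91.7% of all distal regions were. At AP-1 regions the ratio of replicate 2 to replicate 1 had a median of 1.74, and at the others of 1.67. A −log10 q of at least 5 in both replicates was reached by 1114 AP-1 regions (59.4%, 57.1 to 61.6%), by 51.3% of all distal regions and by 49.5% of the other distal summits. The difference of 9.87 percentage points between AP-1 regions and other summits had a 95% Newcombe interval of 7.40 to 12.3. Replicate 1 set this count: 60.1% of the AP-1 regions passed in replicate 1 and 90.6% in replicate 2.

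**Figure D3:**
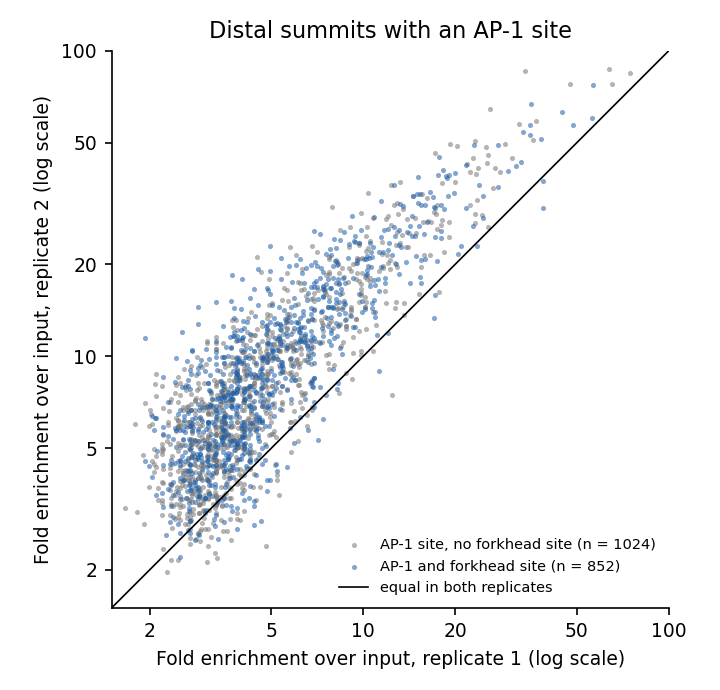
Fold enrichment over input of the 1876 AP-1 regions in replicate 1 (x axis, log scale) and replicate 2 (y axis, log scale), 1 point per region, blue where a forkhead site lay within 50 bp (n = 852) and grey where none did (n = 1024). Most points (93.9%) lie above the line of equal values.

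A forkhead site within 50 bp of the summit was present in 852 of the AP-1 regions (45.4%, 43.2 to 47.7%), against 48.5% of all distal regions and 49.1% of the other distal summits. The difference of -3.69 percentage points had an interval of -6.17 to -1.20. The interval held 0 with −log10 q of at least 5 in both replicates (-2.23 points, -5.52 to 1.06) and in windows of 25 bp on each side (-2.71, -5.69 to 0.384), and the difference turned to 10.4 points (8.17 to 12.8) when the peaks of replicate 1 alone were used. An AP-1 site takes up positions in which no forkhead site can lie. Per 1000 free positions, AP-1 regions held 6.14 forkhead sites and other distal summits 5.99, a ratio of 1.03. Of the 946 forkhead sites in AP-1 regions and the 4947 at the other summits, GTAAACA made up 34.8% and 36.7%, ATAAACA 33.2% and 34.6%, ATAAATA 18.2% and 15.1%, and GTAAATA 13.8% and 13.5%.

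Enrichment was higher where both sites were present. The 852 AP-1 regions with a forkhead site had median fold enrichments of 4.40 and 8.55, and the 1024 without one had 3.91 and 7.01. At the other distal summits the medians were 3.85 and 6.99 with a forkhead site and 3.63 and 6.17 without. Both replicates therefore gave the same order of the extremes, from neither site to both sites, while the 2 groups with a single kind of site were close to each other. Expected background medians were 5.39 and 5.0 reads in all 4 groups.

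Within these regions the forkhead site was usually the nearer one to the summit. The centre of the nearest AP-1 site lay a median of 21 bp from the summit (quartiles 11 and 33 bp, with 47 bp as the limit). It lay within 10 bp in 444 regions (23.7%) and 40 bp or more away in 252 (13.4%). From the summit of each replicate on its own, the median was 25 bp in both. In the 852 regions with both sites, the forkhead site was nearer in 565 (66.3%) and the AP-1 site in 280 (32.9%), with median distances of 11 bp for forkhead and 21 bp for AP-1. The AP-1 median was also 21 bp in the 1024 regions without a forkhead site. A second AP-1 site was found in 94 regions, with a median of 24.5 bases between the sites. Those 94 regions had median fold enrichments of 4.26 and 7.70, against 4.07 and 7.63 in the 1782 regions with 1 site.

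The bases beside the AP-1 site were not evenly used. Both strands of the 1970 sites were read, and the base before TGA was A in 38.6% of cases, G in 27.2%, C in 23.7% and T in 10.6%. At the 395748 AP-1 sites of the genome that counted as distal, each of the 4 bases made up between 24.1% and 26.9%. A T at this position was thus 0.431 times as frequent in the AP-1 regions as in the genome, and an A 1.58 times.

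Of those 395748 distal AP-1 sites, 1970 lay in one of the AP-1 regions, a share of 0.498%. With a forkhead site in the 40 bases on either side the share was 2.48% (2.31 to 2.66%), and without one it was 0.335% (0.317 to 0.354%). The share varied with the distance and the order of the 2 sites. Pairs were read in the direction of the forkhead sequence, and 68 arrangements without overlap fit into the 40 bases (forkhead before or after AP-1, with 0 to 33 bases between). Over the 68 arrangements, the median count in the AP-1 regions was 10. The median share of an arrangement's genomic occurrences that lay in AP-1 regions was 2.10%.

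The most frequent arrangement was AP-1 followed after 4 bases by a forkhead site. It occurred in 54 of the AP-1 regions, on 20 chromosomes, and these held 8.32% (6.43 to 10.7%) of the 649 distal occurrences of the arrangement in the genome. With 3 bases between the sites there were 6 pairs, and with 5 bases 16. This arrangement and the others named here were chosen after their values were seen. The following examples, in the direction of the pair and with 6 bases on each side, show that the pair of sites was shared and the bases around it were not; capitals mark the 2 sites.
nearest to CCNG1, chr5:162806744-162806773, plus strand: agaagcTGAGTCActgtGTAAACAcacttc
NT5DC3 intron, chr12:104198867-104198896, plus strand: accttcTGAGTCAtaatGTAAACAgtgacc
nearest to SLC16A7, chr12:60660513-60660542, plus strand: tttggaTGACTCAgtaaGTAAACAgtgagt
TAB2 intron, chr6:149564222-149564251, plus strand: gcctgcTGACTCAtagtGTAAACAcagggg
nearest to ANO3, chr11:26050232-26050261, plus strand: ttagggTGAGTCActgtGTAAACAactgac
nearest to TBX15, chr1:119204701-119204730, plus strand: gaaaaaTGACTCActacATAAACAgggaaa
nearest to IFTAP, chr11:38478080-38478109, plus strand: taatctTGAGTCAcaaaGTAAATAaccata
nearest to PTGFRN, chr1:117396434-117396463, plus strand: gcctgtTGACTCAccatGTAAACAcagtca
TAF12 intron, chr1:28961036-28961065, plus strand: gtgctaTGAGTCAcaaaGTAAATAtggaaa
nearest to PIK3C3, chr18:38653706-38653735, plus strand: aagaaaTGAGTCAttagATAAACAgataag
Over 87 aligned bases, the 54 sequences had a median pairwise identity of 36.8%, and none of the 1431 comparisons reached 70%. The forkhead site was ATAAACA in 17, ATAAATA in 16, GTAAACA in 13 and GTAAATA in 8.

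Regions with AP-1 and forkhead 4 bases apart were among the stronger ones. Their median fold enrichments were 6.58 in replicate 1 and 13.4 in replicate 2, against 4.30 and 8.31 for the 798 other AP-1 regions with a forkhead site. A −log10 q of at least 5 in both replicates was reached by 45 of the 54 (83.3%), and by 63.8% of the 798. They made up 5.71% (3.68 to 8.74%) of the 333 AP-1 regions of rank 2000 or better, 3.16% of those between ranks 2000 and 10000, and 1.07% (0.517 to 2.18%) of those beyond. The strongest one, in an intron of a gene without a symbol and nearest to the start of CCNG1, had fold enrichments of 56.3 and 77.2. The region in TAB2, whose product is an adaptor of the TAK1 kinase, had 27.6 and 49.1, and that nearest to TBX15, a T-box transcription factor gene, had 31.6 and 41.9. The replicates' summits at these 54 regions were a median of 9 bp apart, against 20 bp for the 798 others.

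In the opposite order, forkhead before AP-1, the most frequent distance was 7 bases, with 36 regions and 6.86% (4.99 to 9.35%) of 525 genomic occurrences. Part of this group was alike in sequence. All 36 sequences had a median pairwise identity of 40.2%, and 90 of their 630 comparisons were over 70%. In the group, 17 regions had at least 70% identity to the most common base at each position of the group. By the same rule 0 of the 54 regions with the 4-base arrangement were picked. The likeness of the 17 to each other follows in part from this choice. The 17 lay on 12 chromosomes and had a median pairwise identity of 71.3% over 87 bases (51.7 to 90.8%). Examples of 55 bases show the run of shared letters around the 2 capitalised sites.
nearest to VKORC1, chr16:31111712-31111766, plus strand: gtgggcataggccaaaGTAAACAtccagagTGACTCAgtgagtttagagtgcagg
nearest to PCDH9, chr13:68631400-68631454, minus strand: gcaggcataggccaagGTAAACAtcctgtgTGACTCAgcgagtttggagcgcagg
ZSWIM5 intron, chr1:45732179-45732233, minus strand: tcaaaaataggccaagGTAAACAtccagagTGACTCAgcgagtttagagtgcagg
nearest to CXCL13, chr4:78558233-78558287, minus strand: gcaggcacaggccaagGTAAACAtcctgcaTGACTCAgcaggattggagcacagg
nearest to NCR2, chr6:41288457-41288511, minus strand: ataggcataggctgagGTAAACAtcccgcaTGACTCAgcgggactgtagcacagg
TXNL1 intron, chr18:54309141-54309195, plus strand: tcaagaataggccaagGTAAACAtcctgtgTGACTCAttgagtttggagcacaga
LINC02616 intron, chr4:37009992-37010046, minus strand: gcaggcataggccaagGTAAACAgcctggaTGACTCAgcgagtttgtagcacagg
nearest to OSTF1, chr9:77844947-77845001, plus strand: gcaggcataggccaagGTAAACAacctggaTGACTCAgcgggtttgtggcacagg
In 14 of the 17 the forkhead site was the core of an extended element, since CCAA and 1 more base preceded it. Their median fold enrichments were 6.20 and 13.3, and ranged from 2.58 to 22.8 in replicate 1 and from 4.39 to 31.3 in replicate 2. The 19 other regions with this arrangement had medians of 3.91 and 6.90. The copy nearest to VKORC1 reached 22.8 and 26.7, and the copy nearest to PCDH9 reached 21.6 and 30.5. Whether such copies belong to an annotated repeat was not analysed here. Whether any reads of 75 bases were placed at the wrong copy was not tested.

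Some shorter distances in the same order were also above the medians of the 68 arrangements. With 1 base between the sites there were 26 regions, 6.63% (4.57 to 9.54%) of 392 genomic occurrences, and with none there were 21 regions, 5.20% (3.42 to 7.82%) of 404. The sequences with 1 base between were not alike outside the sites, as 4 of them show. Each label names the gene that holds the sequence or, outside genes, the nearest protein-coding gene.
TBC1D10A, chr22:30708266-30708292, minus strand: ccttatATAAACAgTGAGTCAagacta
ATXN1, chr6:16472690-16472716, minus strand: cattgcATAAACAcTGACTCAttgcat
KIF3B, chr20:30913788-30913814, plus strand: ttttgaGTAAACAgTGAGTCAgcctct
NR2E1, chr6:108521997-108522023, minus strand: tcaaatGTAAACAcTGAGTCAgtacct
Their intervals overlapped with that of the 4-base arrangement, so that no order among these shares is given.

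**Figure D4:**
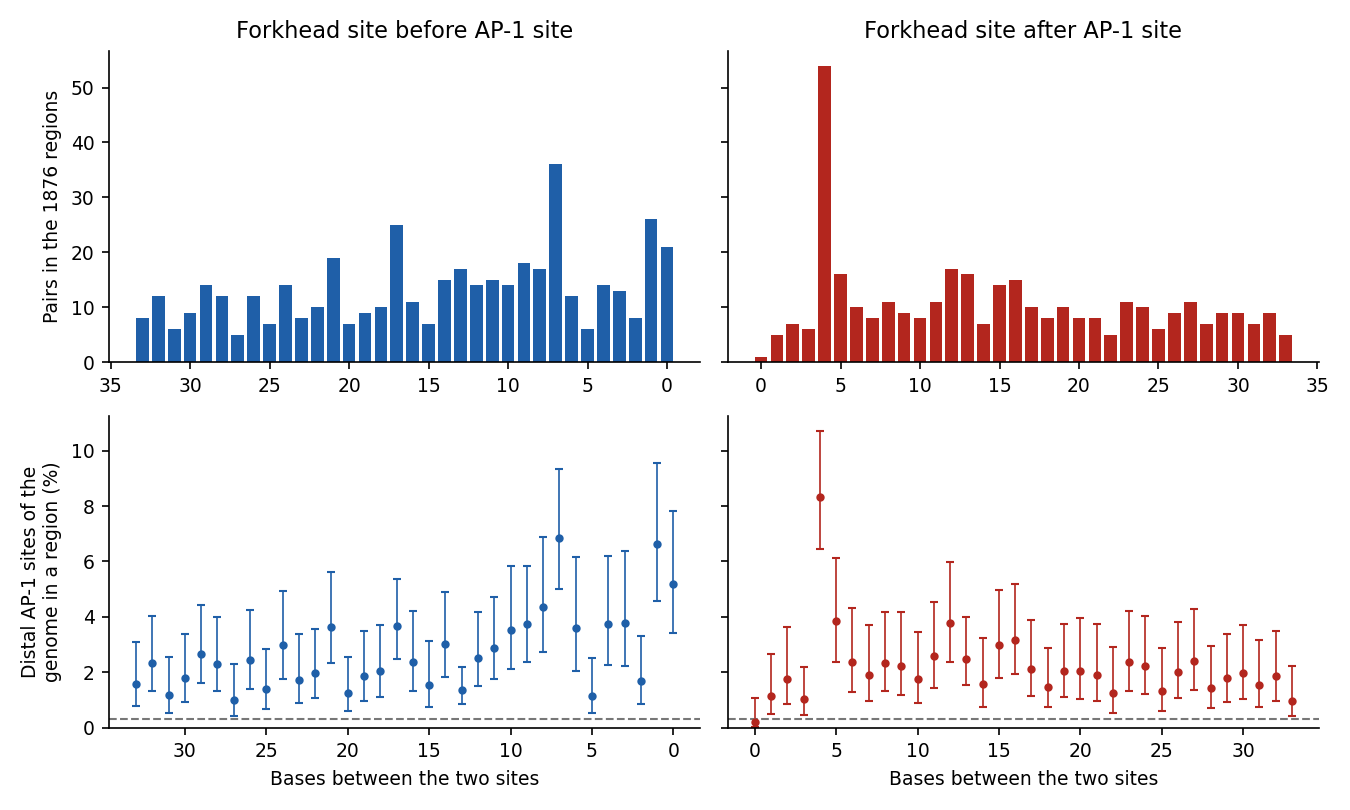
Upper row: number of forkhead and AP-1 pairs in the 1876 AP-1 regions by the number of bases between the sites, for forkhead before AP-1 (left) and after it (right). Lower row: percentage of the distal genomic AP-1 sites with that arrangement that lay in an AP-1 region, with 95% Wilson intervals; the dashed line is the share of AP-1 sites without a forkhead site (0.335%). The tallest bar, 54 pairs, is at 4 bases on the right.

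Other sequences were compared by the share of windows that held them, in AP-1 regions and at other distal summits. Longer AP-1 sites apart, no other sequence had a higher share in AP-1 regions by a margin whose interval left out 0. Some had a lower share. Sites overlapping an AP-1 site were left out, which left fewer positions to search in AP-1 regions. Ratios per free position allow for this, but no interval was computed for them. TEAD, the DNA-binding partner of the YAP coactivator, recognises GGAATGC or GGAATGT. This sequence was found in 3.62% of AP-1 regions (2.87 to 4.57%), 6.98% of the other distal summits (6.46 to 7.53%) and 6.39% of all distal regions. The difference was -3.35 percentage points (-4.29 to -2.28), and it was -1.40 points (-2.03 to -0.690) with the peaks of replicate 2 alone and -1.22 (-2.07 to -0.221) with those of replicate 1 alone. It kept its sign per free position, with 0.450 sites per 1000 positions in AP-1 regions and 0.778 at other summits, a ratio of 0.578. In the windows 500 bp downstream of the AP-1 regions the share was 2.72%.

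RUNX sequences, TGTGGTC or TGTGGTT, were found in 6.29% of AP-1 regions and 8.52% of other summits, a difference of -2.23 points (-3.41 to -0.909) and a ratio of 0.828 per free position. The CEBP sequence TTGCNNAA gave 7.46% and 9.12%, a difference of -1.65 points (-2.92 to -0.247) that shrank to a ratio of 0.949 per free position. The extended forkhead element was found in 109 AP-1 regions (5.81%) and in 7.94% of other summits, a ratio of 0.90 per free position, and in 0.640% of the windows 500 bp downstream. GATA sequences, AGATAAG or TGATAAG, were held by 3.62% and 3.63%, a difference of -0.008 points (-0.869 to 1.01). Their ratio per free position was 1.12. The grainyhead sequence AACCNGTT gave 0.959% and 0.989%, a difference of -0.029 points (-0.450 to 0.554) and a ratio of 1.14 per free position. CTCF, NFI, p53 family, ETS (CCGGAAG), SP/KLF (GGGCGGG) and CRE (TGACGTCA) sequences each lay in under 1% of AP-1 regions and of other summits. The insulator protein CTCF's sequence was in 3 AP-1 regions (0.160%) and 45 other summits (0.517%), a difference of -0.357 points (-0.561 to -0.022). The nuclear receptor sequence AGGTCA was in 6.08% and 7.22%, a difference of -1.14 points (-2.28 to 0.143). The longer sequence TGACTCAGC, an AP-1 site that is also read by NFE2-type dimers, was in 150 AP-1 regions (8.0%) and in 8.1% of the promoter summits with an AP-1 site. The E-box CAGGTG was found in 2.99% of AP-1 regions against 6.72% of the windows 500 bp downstream, and TAATTA, read by homeodomain proteins, in 2.19% against 4.42%. Both were thus rarer at the summits of AP-1 regions than beside them. At other distal summits the shares were 3.29% against 8.13% for CAGGTG and 2.49% against 4.30% for TAATTA. Per free position, the ratios of AP-1 regions to other distal summits were 1.05 for CAGGTG and 0.978 for TAATTA.

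**Figure D5:**
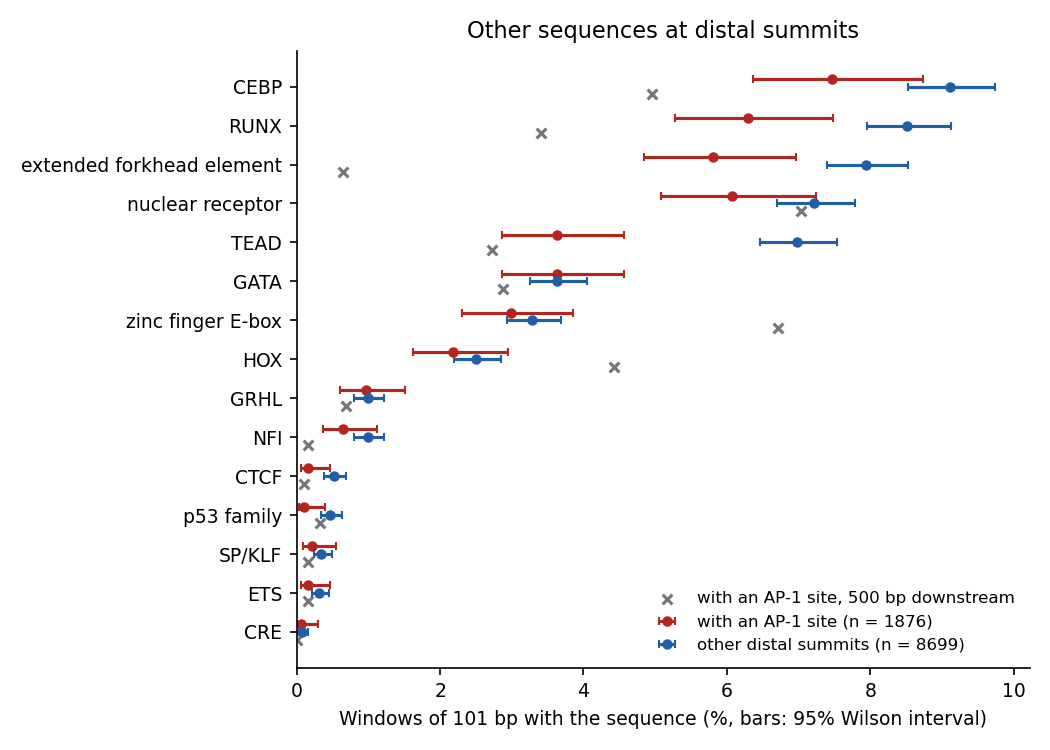
Percentage of windows of 101 bp that held each other sequence, in AP-1 regions (red) and at the other distal summits (blue), with 95% Wilson intervals, and 500 bp downstream of the AP-1 regions (crosses). TEAD has the widest gap in percentage points among the sequences shown, 3.62% against 6.98%.

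An exact match leaves out weaker relatives of the AP-1 site. TGAATCA or TGATTCA, which have A or T in the middle, were found at 8.10% of the other distal summits (7.55 to 8.70%) and in 1.80% (1.55 to 2.11%) of the windows 500 bp downstream of them, a ratio of 4.49. Changes of the second base from either end gave 18.8% and 8.16%, a ratio of 2.31, changes of an outer base gave 6.41% and 5.18%, a ratio of 1.24, and changes of the third base gave 11.9% and 14.6%, a ratio of 0.811. The 8699 other summits were therefore not free of AP-1-like sequence. At the edges of the rule, the 23 regions whose nearest site was centred 47 bp away had median fold enrichments of 3.63 and 7.06, and the 31 summits whose nearest site was centred 48 bp away had 3.98 and 7.13. The region nearest to the 2 kb limit lay 2034 bp from the start of an unnamed gene on chromosome 8 (fold enrichments 3.87 and 11.6), and the region just excluded lay 1996 bp from that of ENC1 (2.73 and 2.19).

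Of the AP-1 regions, 1090 (58.1%, 55.9 to 60.3%) had their summit in an intron, as did 60.3% of all distal regions. Another 738 (39.3%) were intergenic and 48 (2.56%) lay in an exon. The other distal summits were intergenic in 35.9% of cases, and the difference of 3.39 percentage points had an interval of 0.982 to 5.84. The median distance to the nearest start site was 15666 bp for AP-1 regions and 14500 bp for the other summits. Among distal summits, the AP-1 share was 17.5% at 2 to 5 kb from a start site, 16.9% at 5 to 20 kb, 18.7% at 20 to 100 kb and 19.0% (15.8 to 22.7%) beyond 100 kb.

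The 20 AP-1 regions with the best ranks had fold enrichments of 18.7 to 74.6 in replicate 1 and 28.4 to 87.3 in replicate 2, from 208 to 472 and from 349 to 528 ChIP reads over the summit. All 20 were higher in replicate 2. Introns held 17 of them and 3 were intergenic; 11 had a forkhead site and 5 an extended forkhead element. The best-ranked, chr13:114147194-114148479 in an intron of TMCO3, had 47.4-fold and 78.0-fold enrichment (62.7 ± 21.7, SD, n = 2). The region chr9:32395473-32396583 in ACO1, which encodes the iron-regulatory cytosolic aconitase, had 65.1 and 77.9 (71.5 ± 9.05, n = 2). In ITPR1, the gene of a calcium channel of the endoplasmic reticulum, chr3:4782989-4784048 had 74.6 and 84.6 (79.6 ± 7.14, n = 2). In ZFHX3, a homeobox and zinc finger gene, chr16:73053678-73054935 had 63.8 and 87.3 (75.6 ± 16.6, n = 2). Of the 20, ITPR1 was the highest in replicate 1 and ZFHX3 in replicate 2. ACO1, ITPR1 and ZFHX3 are the windows printed above with an extended element beside the AP-1 site.

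The replicates differed most at MGAT4C among the 20. Its region, chr12:87105664-87107089, had 33.8 and 85.6 (59.7 ± 36.6, n = 2), with an expected background of 11.7 reads in replicate 1 and 4.54 in replicate 2. DLG2, a synaptic scaffold gene, had 44.7 and 63.0, with a forkhead site 5 bp and an AP-1 site 31 bp from the summit. The intergenic region 6939 bp from GNLY, which encodes granulysin, had 56.2 and 60.2, and that 91937 bp from DPYD, the gene of the enzyme that degrades pyrimidines and fluorouracil, had 48.5 and 57.1. LIFR, the receptor of leukemia inhibitory factor, held a region with 2 AP-1 sites and a forkhead site, with 38.1 and 51.5. DST, a cytoskeletal linker gene, held a region with 35.4 and 67.1. EPS8, whose product is a substrate of the EGF receptor that regulates actin, held one with 29.0 and 49.7. Regions in NT5DC3, RUVBL1, SUSD5, ULK4 and SAMD12 and those nearest to CCNG1, SLC16A7, CP and RFC3 made up the rest.

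The genes around the AP-1 regions were looked up in 8 lists. A protein-coding gene was counted when an AP-1 region lay in its body or when its start site was the nearest one to the region; 1611 of 20090 genes (8.02%) met this, and 5110 (25.4%) met it for any distal region. Neither measure shows that a region acts on the gene, and genes in gene-poor stretches are nearest to more regions. Among the 14 genes of AP-1 subunits, 1 was counted: JUN, which was nearest to 2 AP-1 regions, the better one 231920 bp away with fold enrichments of 2.91 and 4.10. The FOS genes, the other JUN genes and the rest of the list were not counted. For all distal regions 3 of the 14 were counted. Of 25 AP-1 target genes, 4 were counted (MMP13, VEGFA, TGFB1 and COL1A2), and 13 for all distal regions. The MMP13 collagenase gene held a region 4816 bp from its start, with 2.90 and 6.30. The region in the body of TGFB1 had its summit in an annotated exon, with 5.03 and 8.39. Its nearest protein-coding start site was that of CCDC97, 3957 bp away.

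Of 17 genes of the mesenchymal state, 8 had an AP-1 region: SNAI2, ZEB2, CDH2, FN1, ITGA5, THBS1, CDH11 and COL5A1. CDH2, which encodes N-cadherin, was nearest to 3 AP-1 regions among 13 distal regions, and the best had 9.21 and 28.9 (19.0 ± 13.9, n = 2). The repressor gene ZEB2 was also nearest to 3, the best with 8.31 and 18.7, and SNAI2 to 2, the best 12787 bp from its start with 7.70 and 9.05. These genes were close to distal FOXC1 regions of every kind, since 14 of the 17 were counted when all distal regions were used. YAP and TEAD target genes gave 8 of 21 (17 of 21 for all distal regions): CCN2, ANKRD1, F3, ASAP1, FJX1, NT5E, TGFB2 and IGFBP3. The best of these, in an intron of NT5E, the gene of the ecto-nucleotidase CD73, had 10.2 and 22.04 (16.1 ± 8.35, n = 2).

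Of 16 luminal urothelial genes 4 were counted (GATA3, KRT20, ELF3 and GRHL3), and of 17 basal and squamous genes 2 (TP63 and DSC3); 7 of each list were counted for all distal regions. GATA3 was nearest to 3 AP-1 regions, the best with 4.24 and 9.87 at 766059 bp. KRT20 and GRHL3 were counted through 1 region each, and both regions were weak in replicate 1. Their −log10 q was 1.11 and 0.751 in replicate 1, and 11.9 and 8.62 in replicate 2. Among 15 genes of MAPK feedback, DUSP4, SPRY1 and PHLDA1 were counted, and 9 of the 15 for all distal regions. The best region of the phosphatase gene DUSP4 had 6.78 and 13.3. Of 11 genes of drug and platinum transport 3 were counted (6 for all distal regions), each of the 3 with the region in the body of the gene. ABCG2, the efflux pump that marks side population cells, held chr4:89027239-89028035, with 20.3 and 48.9 (34.6 ± 20.2, n = 2) from 129 and 256 ChIP reads and without a forkhead site. The protein-coding start site nearest to this region was that of PKD2, 50418 bp away. ABCC4 had 4.84 and 13.3, and ABCB1, with a forkhead site, had 3.46 and 6.65. No copper transporter gene of the list (ATP7A, ATP7B, SLC31A1 and SLC31A2) was counted.

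Most of the 1506 genes that were nearest to an AP-1 region were nearest to 1 only (1225 genes), and 61 were nearest to 3 or more. PCDH9 and PCDH7, both protocadherin genes, were nearest to 7 each, among 13 and 14 distal regions. The 7 regions of PCDH9 spread over 2034 kb of chromosome 13, and fold enrichment ranged from 3.19 to 21.6 in replicate 1. SOX9, a transcription factor gene with a large gene desert, was nearest to 6 of 17 distal regions over 960 kb, with values of 2.67 to 15.0 in replicate 1 and 4.24 to 33.9 in replicate 2. MYC was nearest to 5 of 15, from 113 to 438 kb away, the best with 17.6 and 39.3 (28.4 ± 15.3, n = 2). CDK6, a cyclin-dependent kinase gene, was nearest to 5 of 8, all of them in introns and within 134 kb. Its best region, chr7:92381356-92382365, had 14.2 and 26.6 (20.4 ± 8.78, n = 2).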

How the data were processed

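Peak lists of both FOXC1 ChIP replicates were analysed; input libraries have no peak list of their own. Per the labels and the study's methods, single-end reads of 75 bases were aligned to hg19 with BWA. The authors called peaks in each replicate against input with MACS2 2.2.7.1. They also called reproducible peaks with the IDR tool, a step not used for the regions here. The deposited columns hold a score (10 times −log10 p, without decimals), the fold enrichment (a ratio), −log10 p and −log10 q at the summit, none of them a count. Because fold enrichment and p both follow from whole reads, the ChIP reads over each summit were recovered for 100% of peaks in both lists, within a residual of 0.001.

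Sequences came from GRCh37, which shares the coordinates of hg19 on these chromosomes, and start sites from GENCODE 44 lifted to GRCh37. Regions, motifs, Wilson and Newcombe intervals and figures were computed in Python 3.11.15 with pandas 2.3.3, SciPy 1.17.1 and matplotlib 3.10.9, and tested on simulated peaks. No test over samples was run. Named were the 20 regions with the best worse rank, counted genes of the 8 lists, the 5 genes nearest to most regions, and regions at the edges of the rule. The members, lists and tests were chosen with earlier results of these data known. The effect of other settings is given in the closing section.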

Additional observations from a re-analysis of the deposited data

How the results depend on the processing

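Without replicate 1 or without replicate 2, when every peak of the remaining list was used, the AP-1 share of distal summits was 10.7 to 12.4%, the number of regions 1959 to 4057, the forkhead share 36.8 to 41.3% in AP-1 regions and 30.9 to 38.9% at the others, and the TEAD difference -1.40 to -1.22 points. The difference in forkhead share was -2.16 points without replicate 1 and reversed to 10.4 points without replicate 2; the cause was not tested. With −log10 q of at least 5 in both replicates, 1114 regions were left, the AP-1 share was 20.5%, the forkhead shares 49.7% and 52.0%, the medians in replicate 2 11.1 and 10.3, the ratio of replicates 1.78 and the TEAD difference -4.30 points. Windows of 25 and 100 bp gave 1006 and 2982 regions, AP-1 shares of 9.51% and 28.2%, forkhead shares of 32.1% and 57.3% (34.8% and 59.9% at other summits) and TEAD differences of -1.69 and -4.41 points, as smaller and larger windows must hold fewer and more sites. With 25 bp the 4-base arrangement gave 6.16%; with 100 bp the median site distance was 35.0 bp and any second motif was held by 38.9%. Counting sites by their centre gave an AP-1 share of 18.5%. GTAAACA alone gave forkhead shares of 17.3% and 20.3%, and a broader forkhead consensus 50.6% and 53.6%. Control shares were 1.55% at 2000 bp and 1.42% for the consensus read backwards. Recovered reads gave a ratio of replicates of 1.86. Thresholds of 1.3 and 10 on −log10 q were passed by 91.5% and 38.5%. Beyond 5 kb, 55.8% lay in introns.

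The alternatives for the number of regions, the TEAD and forkhead differences and the 4-base arrangement were added after seeing the data. Another overlap, another choice of peak and start sites of protein-coding genes only moved no value beyond its interval. Leaving out sites in repeats was not run, since the assembly used does not mark repeats. No paired analysis was possible because input libraries enter only through the peak calls, leaving 1 group. Summits with few reads in replicate 1, a median of 26 over AP-1 regions, limit what single regions show.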
